A study of Homo sapiens with 24 samples.

Results

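The genes described here are 9 chemokine receptors of T cells, CCR4, CCR6, CCR7, CCR8, CCR9, CCR10, CXCR3, CXCR4 and CXCR5, chosen by name from the 25559 genes of the count tables. The data are 24 RNA-seq libraries of 3 established human T-cell lines, with 1 library per condition. TLOm1 derives from adult T-cell leukemia, PF382 from T-cell acute lymphoblastic leukemia and HH from cutaneous T-cell lymphoma. Azacitidine (AZA) and decitabine, cytidine analogs that block DNA methylation, were given at intervals of 24 h over an exposure of 96 h, and untreated cells served as controls. AZA was used at 125, 250 and 500 nM in TLOm1 and PF382 and at 50, 125 and 250 nM in HH, and all lines received decitabine at 5, 12.5 and 25 nM. The AZA and decitabine libraries form 2 sets of 12, told apart by the prefix of their titles, and either set holds its own untreated library of each line, so each line has 2. Of the PF382 libraries, the one at 250 nM AZA and the one at 12.5 nM decitabine are titled PF82 and were taken as PF382 from their cell line label. The series set out to compare the mechanisms of AZA and decitabine in models of T-cell lymphoma. No condition had a replicate library, so p values rest on the spread between doses and lines within a model, and the labels do not state whether the doses are separate experiments.

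Chemokine receptors are G protein-coupled receptors that steer T cells along gradients of chemokines, small secreted proteins displayed on blood vessels and in tissues. The set that a T cell carries differs between homing routes and helper types: CCR4, CCR8 and CCR10 are associated with skin, CCR9 with thymus and gut, CCR7 and CXCR5 with the T-cell zones and follicles of lymphoid tissue, CXCR3 with inflamed tissue, and CXCR4 with bone marrow. CCR4 is the target of the antibody mogamulizumab, which is used in adult T-cell leukemia and in cutaneous T-cell lymphoma.

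Since both drugs act on the methylation of cytosine in CpG pairs, the 250 bases before an annotated transcription start are shown for 4 receptors on which the results below turn. The RefSeq windows (GRCh38.p14) hold 6 of the 9 receptors, in 11 windows, and name no window for CCR7, CCR8 or CCR10. The motif searched was CG, which reads the same on both strands, and it stands in capitals. The lines show CXCR3 at chrX:71618512-71618761 on the minus strand, CCR4 at chr3:32951394-32951643 on the plus strand, the first of 2 windows of CCR9 at chr3:45886293-45886542 on the plus strand, and the first of 3 windows of CXCR4 at chr2:136118150-136118399 on the minus strand, each 5′ to 3′.
CXCR3: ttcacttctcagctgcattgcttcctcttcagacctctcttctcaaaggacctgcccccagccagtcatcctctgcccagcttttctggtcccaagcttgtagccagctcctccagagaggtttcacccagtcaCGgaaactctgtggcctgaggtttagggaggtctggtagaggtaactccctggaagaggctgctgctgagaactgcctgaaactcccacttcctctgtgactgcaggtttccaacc
CCR4: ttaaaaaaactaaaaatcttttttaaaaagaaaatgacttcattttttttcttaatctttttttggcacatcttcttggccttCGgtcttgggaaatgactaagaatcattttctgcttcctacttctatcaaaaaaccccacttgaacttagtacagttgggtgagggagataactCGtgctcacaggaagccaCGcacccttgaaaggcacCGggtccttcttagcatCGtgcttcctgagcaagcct
CCR9: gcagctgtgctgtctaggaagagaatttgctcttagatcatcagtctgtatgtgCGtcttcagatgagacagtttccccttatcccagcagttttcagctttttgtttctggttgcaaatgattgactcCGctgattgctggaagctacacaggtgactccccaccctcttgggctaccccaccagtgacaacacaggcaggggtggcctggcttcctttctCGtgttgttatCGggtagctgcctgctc
CXCR4: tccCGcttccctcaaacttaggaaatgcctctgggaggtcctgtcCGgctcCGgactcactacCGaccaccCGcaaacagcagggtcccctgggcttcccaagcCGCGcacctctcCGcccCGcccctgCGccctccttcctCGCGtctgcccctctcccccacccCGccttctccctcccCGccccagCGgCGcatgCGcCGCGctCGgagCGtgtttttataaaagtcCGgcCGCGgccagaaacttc
CXCR3 had 1 CpG in this window, CCR9 had 4, CCR4 had 5 and CXCR4 had 24. The windows not shown held 6 CpG for CCR9 and 12 and 8 CpG for CXCR4. Over all 35116 windows the median was 11, and 93.9% of windows held at least 1 CpG. As few CpG as in CXCR3 were found in 14.7% of windows and as many as in the CXCR4 window shown in 23.7%. Methylation itself was not measured in these libraries, and a count of CpG in a window is a description of the sequence.

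Total counts lay between 13892514 and 32496676 over the 24 libraries, and values are given as CPM, the counts scaled to the library total. A count of 0 allows up to 3 counts, or 0.0923 to 0.216 CPM over the libraries, for counting error alone. The labelled lines were checked against T-cell genes. CD3E, a chain of the T-cell receptor complex, was present in each line at 33.5 CPM or more. CD3D and CD3G, 2 other chains of that complex, stayed at or below 0.731 CPM in TLOm1, and the kinase LCK at or below 1.34 CPM in TLOm1 and 0.646 CPM in HH. RAG1, the recombinase of immature lymphocytes, was 680.1 to 1395 CPM in PF382, against at most 1.42 CPM in TLOm1 and 1.14 CPM in HH.

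The first question was which receptors the untreated lines carry. Each line had a receptor profile of its own. TLOm1 had CCR4, CCR7, CCR8, CCR10 and CXCR4 at 1 CPM or more in both untreated libraries, PF382 had CCR9, CXCR4 and CXCR5, and HH had CCR4, CCR7, CXCR3 and CXCR4. CXCR4, the receptor of CXCL12, was the one member above this limit in all 3 lines. Per length, as CPM per kilobase of exon in GENCODE v29 (GRCh38, not the build of the files), the highest level in TLOm1 was that of CCR7, at 303 CPM per kb in both untreated libraries. There CCR8 followed at 75.7 and 87.9 CPM per kb in the AZA and decitabine sets, CXCR4 at 45.8 and 65.3, CCR4 at 30.01 and 37.4 and CCR10 at 3.20 and 2.39 CPM per kb. The values of neighbours in this order did not overlap in TLOm1. In PF382, CXCR4 was at 239 CPM per kb in both libraries and CCR9 at 55.4 and 56.1 CPM per kb, while every other member stayed under 1 CPM per kb. In HH, CCR4 at 107 and 158 CPM per kb and CCR7 at 104 and 123 CPM per kb overlapped, CXCR4 lay below them at 74.9 and 94.4 CPM per kb, and CXCR3 lay lower still at 3.44 and 2.32 CPM per kb.

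**Figure D1:**
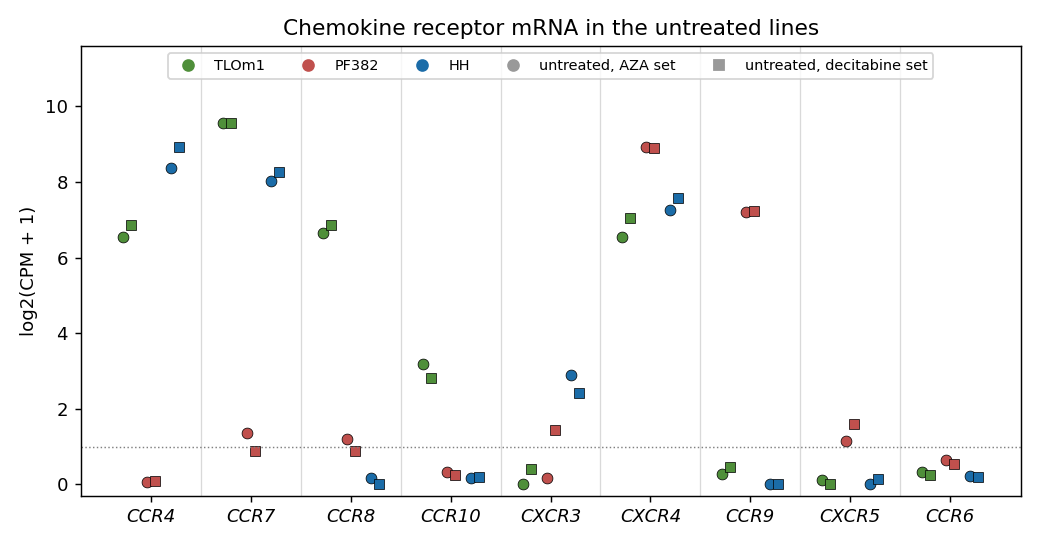
Level of the 9 receptors in the untreated libraries, as log2(CPM + 1), by line (color) and set (circle, AZA set; square, decitabine set). The dotted line marks 1 CPM. CCR10 lies above it in both TLOm1 libraries only, CCR8 in both TLOm1 libraries and in the PF382 library of the AZA set, CCR9 in both PF382 libraries only, and CXCR4 in all 6 libraries.

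Of the 9 receptors, 7 passed the edgeR test (adjusted p under 0.05) in each pair of untreated lines, 4 of them higher and 3 lower. Among all genes tested, 67.2% were called between TLOm1 and PF382, 55.7% between TLOm1 and HH and 66.4% between PF382 and HH, so that most genes differed between these lines. Relative to PF382, TLOm1 had more CCR4, CCR7, CCR8 and CCR10 and less CCR9, CXCR4 and CXCR5. Relative to HH, TLOm1 had more CCR7, CCR8, CCR9 and CCR10 and less CCR4, CXCR3 and CXCR4. The CCR9 call there rests on 5 and 8 counts in untreated TLOm1 and 0 in untreated HH. Relative to HH, PF382 had more CCR8, CCR9, CXCR4 and CXCR5 and less CCR4, CCR7 and CXCR3.

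CCR4, the receptor of CCL17 and CCL22, was 92.9 and 116 CPM in untreated TLOm1, 0.0436 and 0.0652 CPM in untreated PF382 and 331 and 489 CPM in untreated HH. TLOm1 was lower than HH, with a log2 difference of -1.99 (SE 0.11, edgeR adjusted p = 1.06e-07). CCR8, the receptor of CCL1, was 99.8 and 116 CPM in TLOm1, 1.31 and 0.847 CPM in PF382 and 0.123 and 0 CPM in HH. TLOm1 exceeded PF382 by 6.74 on the log2 scale (SE 0.26, edgeR adjusted p = 1.05e-08). CCR10, the receptor of CCL27 and CCL28, was 8.05 and 6.02 CPM in TLOm1, 0.262 and 0.195 CPM in PF382 and 0.123 and 0.149 CPM in HH. The 3 receptors associated with skin were thus together above 1 CPM in TLOm1, while HH held CCR4 alone among them.

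CCR7, the receptor of CCL19 and CCL21, was 760.5 and 760.4 CPM in untreated TLOm1, 1.57 and 0.847 CPM in PF382 and 259.8 and 308 CPM in HH. CXCR4 was 92.3 and 132 CPM in TLOm1, 481 and 481 CPM in PF382 and 151 and 190.2 CPM in HH, and no 2 lines overlapped. CCR9, the receptor of CCL25, was 0.203 and 0.370 CPM in TLOm1, 147 and 149 CPM in PF382 and 0 in both HH libraries. CXCR5, the receptor of CXCL13, was 0.0813 and 0 CPM in TLOm1, 1.22 and 2.02 CPM in PF382 and 0 and 0.0994 CPM in HH. CXCR3, the receptor of CXCL9, CXCL10 and CXCL11, was 0 and 0.324 CPM in TLOm1, 0.131 and 1.69 CPM in PF382 and 6.42 and 4.32 CPM in HH. The 2 untreated PF382 libraries differed 12.9-fold in CXCR3, and both of its calls against HH were lost without the filter on low counts (edgeR adjusted p = 0.144 for PF382 and 0.0823 for TLOm1). The call for PF382 was also lost without the HH or PF382 library of the AZA set or either TLOm1 library (adjusted p from 0.0574 to 0.0705), and that for TLOm1 without either TLOm1 library (0.115 for the AZA set and 0.0582 for the decitabine set). CCR6, the receptor of CCL20, was low throughout, with a highest value of 1.14 CPM over all 24 libraries.

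The next question was what each drug did to these receptors across the lines. With AZA, 0 of the 8 receptors tested were called by edgeR, against 1.17% of the 16107 genes tested. That share is 189 genes, and fits without 1 library called from 1 to 263 genes. At an unadjusted p under 0.05 there were 4 receptors, against 3377 of the 16107 genes. DESeq2 called 1 receptor, CXCR3, against 1115 of all genes. With decitabine, 0 of 8 were called, as were 0 (0%) of the 15892 genes tested. Here 1 receptor had an unadjusted p under 0.05, against 2492 of all genes. DESeq2 again called CXCR3, 1 of 468 genes that it called. CCR6 did not pass the filter on low counts in the models over all lines. The median log2 difference of the 8 receptors was -0.15 with AZA and 0.05 with decitabine, against 0.01 and 0.02 over all genes tested.

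In the models over the 3 doses, which test the slope per doubling of the dose among treated libraries, edgeR called 1 of 8 receptors with AZA, CCR8, as lower with dose, against 13.7% of 15932 genes. With decitabine it called 1 of 8, CXCR3, as higher with dose, against 2.97% of 15677 genes. DESeq2 called 1 receptor in each of these models as well, against 2484 of all genes with AZA and 691 with decitabine. The share of members called (12.5%) rested on a single gene with either drug, and with AZA it was close to that of all genes.

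**Figure D2:**
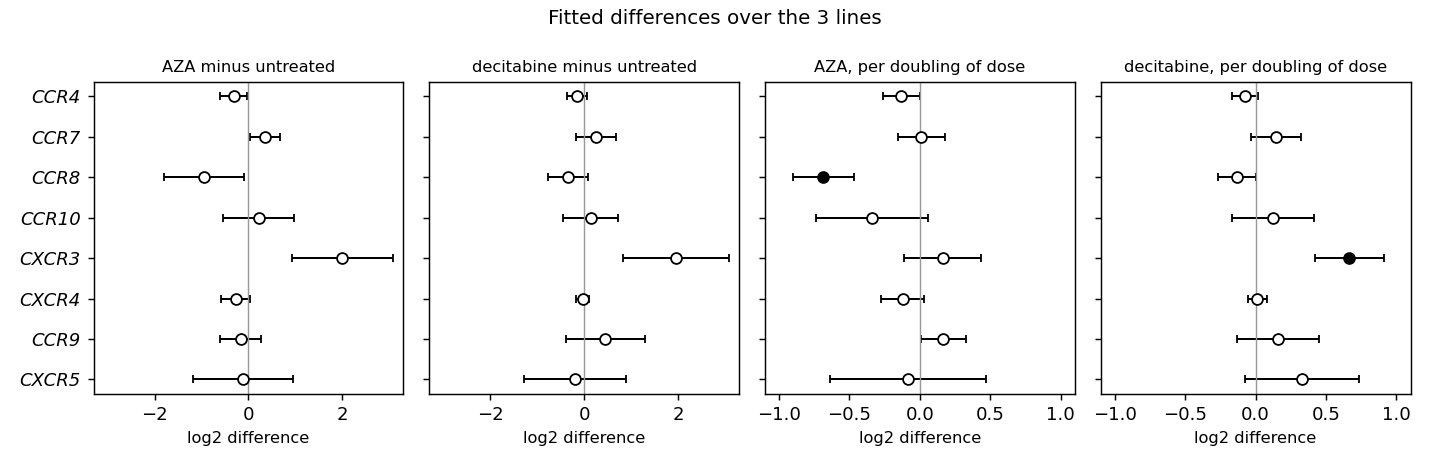
Fitted log2 differences of 8 receptors (rows) over the 3 lines, for AZA and decitabine against untreated and for the slope per doubling of the dose. Bars are 2 standard errors on either side. Filled points passed the edgeR test at an adjusted p under 0.05. The filled points are CCR8 for the AZA slope and CXCR3 for the decitabine slope.

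CXCR3, a receptor of type 1 helper and cytotoxic T cells, exceeded the untreated library of its own line and set in 9 of 9 AZA libraries and in 9 of 9 decitabine libraries. In TLOm1 it was 0 CPM untreated and 1.11, 1.48 and 0.679 CPM at 125, 250 and 500 nM AZA. In PF382 it was 0.131 CPM untreated and 1.57, 2.55 and 2.154 CPM at the same doses. In HH it was 6.42 CPM untreated and 8.96, 15.3 and 14.4 CPM at 50, 125 and 250 nM AZA. In each line the highest AZA value was that of the middle dose. With decitabine, TLOm1 had 0.324 CPM untreated and 0.570 CPM, 2.45 CPM and 1.78 CPM at 5, 12.5 and 25 nM. PF382 had 1.69 CPM untreated and 4.76, 11.04 and 18.6 CPM, and HH had 4.32 CPM untreated and 7.24, 8.60 and 17.9 CPM at these doses. PF382 and HH thus had more CXCR3 at each higher dose of decitabine, and TLOm1 peaked at the middle dose.

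**Figure D3:**
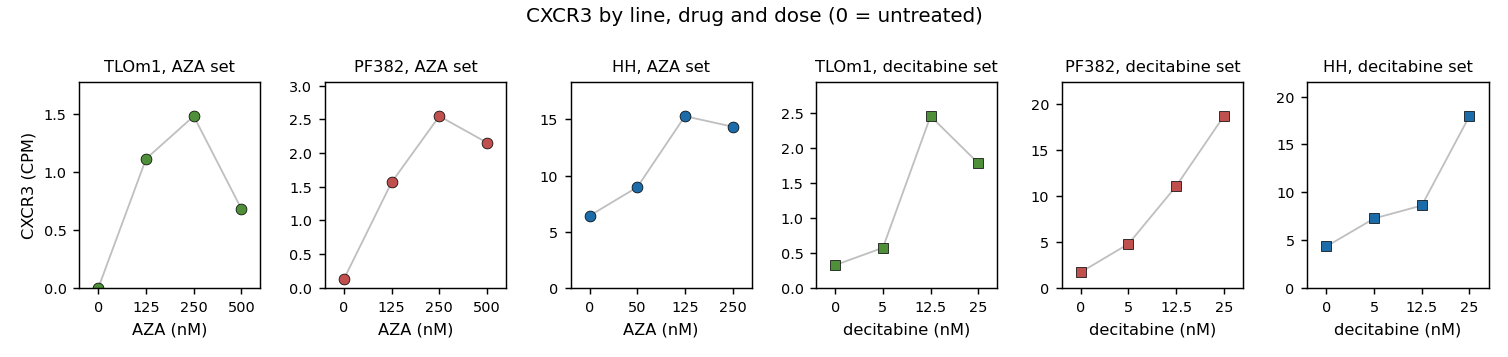
CXCR3 in CPM (vertical axes, each from 0) by dose in nM (horizontal axes, evenly spaced, with the untreated library at 0) in each line and set, 1 point per library. Every treated point lies above the untreated point of its panel, and the highest values are 18.6 CPM in PF382 and 17.9 CPM in HH at 25 nM decitabine.

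The fitted difference of CXCR3 over the lines was 2.001 on the log2 scale with AZA (SE 0.54, edgeR adjusted p = 0.0911, DESeq2 adjusted p = 0.000844). With decitabine it was 1.96 (SE 0.57, edgeR adjusted p = 0.171, DESeq2 adjusted p = 0.00609). The 2 tools therefore placed CXCR3 on different sides of the threshold with both drugs. Its slope was 0.66 per doubling of the decitabine dose (SE 0.12, edgeR adjusted p = 0.0161) and 0.16 per doubling of the AZA dose (SE 0.14, edgeR adjusted p = 0.475). The decitabine slope lost its call without the HH library at 25 nM (adjusted p = 0.0778) or the PF382 library at 5 nM (adjusted p = 0.0619) or 25 nM (adjusted p = 0.0682), and without all HH libraries (adjusted p = 0.0839) or all PF382 libraries (adjusted p = 0.124). With AZA, leaving out the untreated HH library gave a difference of 4.55 and an edgeR adjusted p of 0.0268. HH then has no control, and the difference rests on untreated PF382 with 3 counts and untreated TLOm1 with 0. With the untreated libraries of both sets as controls, edgeR called CXCR3 with AZA (1.56, adjusted p = 0.0204) and with decitabine (2.25, adjusted p = 0.0278), and its decitabine effect in PF382 (3.71, adjusted p = 0.0115). These fits hold no block for the set, and the untreated PF382 libraries of the 2 sets differed 12.9-fold. The effect in PF382 was also called without the library at 5 nM (3.07, adjusted p = 0.0337).

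At 25 nM decitabine CXCR3 was 11.01 times the untreated level in PF382 (95% interval from 7.34 to 17.2) and 4.15 times in HH (from 3.28 to 5.31). At 12.5 nM it was 7.56 times the untreated level in TLOm1 (from 3.49 to 19.5). At 250 nM AZA, CXCR3 was 2.24 times the untreated level in HH (from 1.85 to 2.72) and 19.5 times in PF382 (from 6.35 to 97.0), where the untreated library held 3 counts. In TLOm1, where that library held none, CXCR3 at 250 nM AZA was 12.1 times a floor of 3 counts in the untreated library. The lower 95% limit of the ratio was 9.36. The untreated TLOm1 library of the decitabine set was at 0.324 CPM. These intervals cover counting error only. The untreated PF382 library of the decitabine set, at 1.69 CPM, lay above the PF382 library at 125 nM AZA, so that 8 of 9 AZA libraries exceeded both untreated libraries of their line, against 9 of 9 decitabine libraries.

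TBX21, which encodes T-bet, a transcription factor that drives CXCR3 in type 1 helper T cells, reached at most 0.382 CPM in TLOm1, 0.957 CPM in PF382 and 0.185 CPM in HH. Untreated, TBX21 was 0.175 CPM in PF382 of the AZA set and 0 CPM elsewhere. Its mean over AZA libraries was 0.168 CPM in TLOm1, 0.346 CPM in PF382 and 0.0721 CPM in HH. With decitabine the means were 0.0862, 0.142 and 0.0526 CPM. All 6 means thus lay above untreated, at few counts, and this difference was not tested for its part in CXCR3. GATA3, the factor of type 2 helper T cells, was 27.8 to 36.5 CPM in TLOm1, 37.1 to 84.2 CPM in PF382 and 126 to 234 CPM in HH. Of 18 T helper transcription factors listed, 17 were tested and 0 were called by edgeR with either drug, with 4 at an unadjusted p under 0.05 with AZA and 2 with decitabine. The median log2 difference of this list was 0.03 with AZA and 0.06 with decitabine. In the slope on the AZA dose edgeR called 3 of the 17 as higher, against 13.7% of all genes tested. GATA3 was among them (0.15 per doubling, SE 0.03, edgeR adjusted p = 0.00993). In the decitabine slope it called 1 of the 17 as higher, against 2.97% of all genes.

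Markers of other cell types were measured in the same libraries. KRT8, a keratin of simple epithelia, was 10.3 CPM in untreated TLOm1 and 86.1, 104 and 96.9 CPM at 125, 250 and 500 nM AZA, and was higher with AZA over the lines (2.82 on the log2 scale, SE 0.39, edgeR adjusted p = 0.0184). This call was not examined with a library left out. The 8 epithelial genes listed summed to 136 to 155 CPM in AZA-treated TLOm1, against 49.5 and 83.1 CPM in the untreated libraries, to 22.5 to 43.2 CPM against 3.65 and 5.37 CPM in PF382, and to 1.08 to 2.84 CPM against 0.696 and 0.987 CPM in HH. With decitabine these sums were 87.7 to 152 CPM in TLOm1, 12.3 to 46.7 CPM in PF382 and 0.261 to 2.14 CPM in HH, where they overlapped the untreated ones. Of the 4 epithelial genes tested, 1 was called with AZA and 0 with decitabine by edgeR. With decitabine 2 of them had an unadjusted p under 0.05, against 2492 of all genes tested. The 8 B-cell genes listed summed to 20.1 to 23.5 CPM with AZA against 10.6 and 11.8 CPM untreated in PF382, where CD79A led, to 3.82 to 9.46 CPM against 1.99 and 3.01 CPM in TLOm1, and to 415 to 452 CPM against 349.9 and 406 CPM in HH, where BLK led. The part of these genes in the receptor results was not tested. In bulk RNA, fewer cells of a type and less RNA per cell cannot be told apart.

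CCR8, a receptor of regulatory T cells and of skin-homing T cells, was the receptor called in the AZA slope. In TLOm1 it was 99.8 CPM untreated and 75.5, 59.2 and 33.4 CPM at 125, 250 and 500 nM AZA. The TLOm1 level was thus lower at each higher dose, and at 500 nM it was 0.335 times the untreated level (95% counting interval from 0.309 to 0.363). In PF382, at far lower levels, CCR8 was 1.31 CPM untreated and 0.587, 0.212 and 0.160 CPM at these doses. In HH it was 0.123 CPM untreated and 0.680 CPM, 0.123 CPM and 0.0806 CPM at 50, 125 and 250 nM AZA, on 11 counts or fewer. The slope was -0.69 per doubling of the AZA dose (SE 0.11, edgeR adjusted p = 0.00464). It was called in each of 9 fits without 1 library, with adjusted p values from 0.00223 to 0.0428. It was also called without HH (slope -0.60, adjusted p = 0.00486) and without PF382 (slope -0.64, adjusted p = 0.0194), and without TLOm1 the gene no longer passed the filter on low counts. It also did not pass, and was not tested, when the filter took all treated libraries as 1 group, an alternative chosen after seeing the data.

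With decitabine, CCR8 in TLOm1 was 116 CPM untreated and 109, 93.9 and 91.8 CPM at 5, 12.5 and 25 nM, with a slope over the lines of -0.13 per doubling (SE 0.07, edgeR adjusted p = 0.342). In PF382 it was 0.847 CPM untreated and 0.459 CPM, 0.0669 CPM and 0.216 CPM, and in HH it was 0 in all 4 libraries of the decitabine set. The difference against untreated was -0.95 with AZA (SE 0.42, edgeR adjusted p = 0.229) and -0.35 with decitabine (SE 0.22, edgeR adjusted p = 0.456), where it was -1.69 without the untreated TLOm1 library (edgeR adjusted p = 0.282). CCR8 was below its own untreated library in 8 of 9 AZA libraries, the exception being HH at 50 nM, and in 6 of 9 decitabine libraries, the other 3 being HH libraries at 0.

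**Figure D4:**
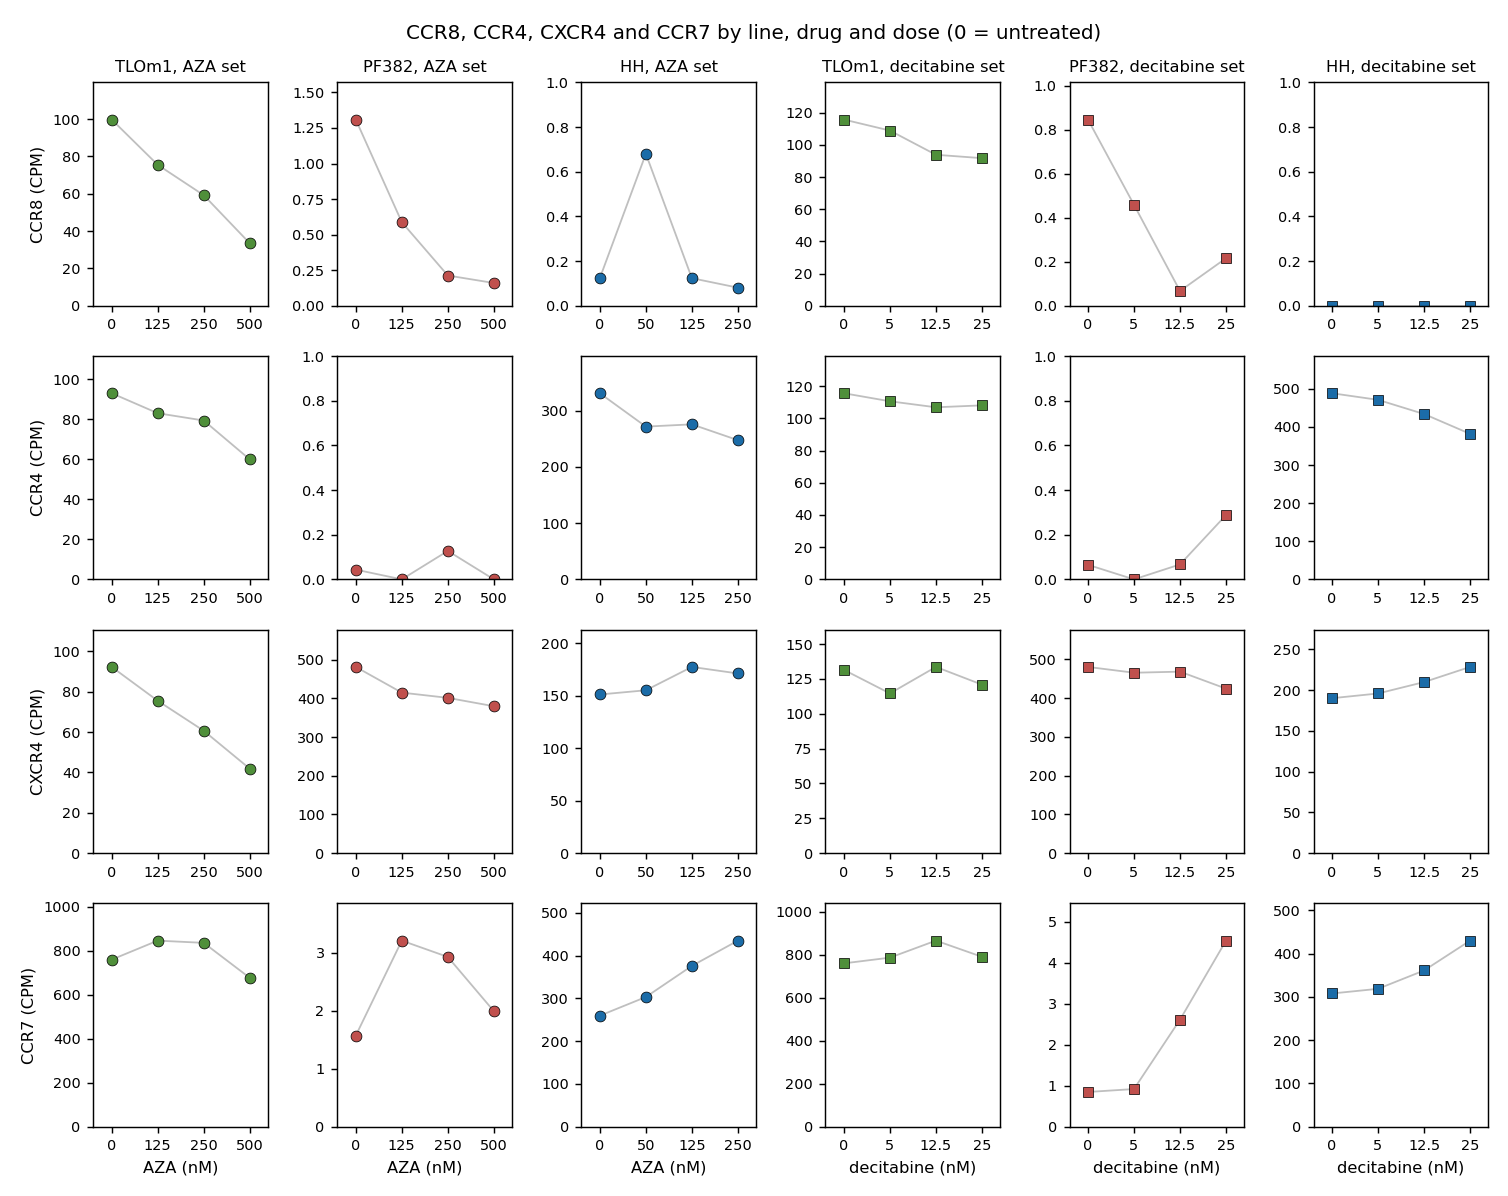
CCR8, CCR4, CXCR4 and CCR7 in CPM (rows, vertical axes from 0, scaled by panel) by dose in nM (evenly spaced, 0 for untreated) in each line and set, 1 point per library. In TLOm1 with AZA, CCR8 reaches 33.4 CPM and CXCR4 41.8 CPM at 500 nM, the lowest points of their panels, while CCR7 in HH is highest at the top dose of either drug.

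CCR4 lay below its own untreated library at all 3 doses of either drug in both lines that carry it. In TLOm1 it was 92.9 CPM untreated and 82.9, 79.3 and 59.9 CPM at 125, 250 and 500 nM AZA. In HH it was 331 CPM untreated and 272, 276 and 247 CPM at 50, 125 and 250 nM AZA. With decitabine it was 116 CPM untreated and 111, 107 and 108 CPM at 5, 12.5 and 25 nM in TLOm1. The HH series of that set was 489 CPM untreated and 471, 434 and 382 CPM at the same doses. These differences were small: -0.32 on the log2 scale with AZA (SE 0.14, edgeR adjusted p = 0.232) and -0.15 with decitabine (SE 0.10, edgeR adjusted p = 0.493), and neither was called. All AZA-treated TLOm1 and HH libraries lay below both untreated libraries of their line, but no decitabine-treated one did. With the untreated libraries of both sets as controls, CCR4 was called with AZA over the lines (-0.54, edgeR adjusted p = 0.0158) and in HH (-0.63, edgeR adjusted p = 0.0420). With these controls the decitabine difference was 0.050 over the lines, 0.034 in HH and 0.044 in TLOm1, opposite in sign and not called.

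CCR10 in TLOm1 was 8.05 CPM untreated and 8.76, 7.14 and 3.35 CPM at 125, 250 and 500 nM AZA. At 500 nM it was 0.417 times the untreated level (95% counting interval from 0.317 to 0.543), while the intervals at the 2 lower doses included 1. With decitabine it was 6.02 CPM untreated and 5.70 CPM, 6.75 CPM and 5.59 CPM, and all 3 intervals included 1. In PF382 and HH it did not exceed 0.638 and 0.369 CPM in any library. Its AZA slope was -0.34 per doubling (SE 0.20, edgeR adjusted p = 0.29).

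CXCR4 went in different directions in different lines. In TLOm1 it was 92.3 CPM untreated and 75.5, 60.6 and 41.8 CPM at 125, 250 and 500 nM AZA, lower at each higher dose. In PF382 it was 481 CPM untreated and 415, 401 and 379.6 CPM at these doses, also lower at each. In HH it was 151 CPM untreated and 155, 177 and 171 CPM at 50, 125 and 250 nM AZA, above the untreated library at all 3 doses but below the untreated library of the decitabine set (190.2 CPM). The effect in TLOm1 was -0.62 on the log2 scale (SE 0.20, edgeR adjusted p = 0.122, DESeq2 adjusted p = 0.0501), and it was called without the TLOm1 library at 125 nM (-0.85, edgeR adjusted p = 0.0134) or with the untreated libraries of both sets (-0.88, edgeR adjusted p = 0.00485). The fit with both sets holds no block for the set, and untreated TLOm1 was 92.3 and 132 CPM in the 2 sets. The test of the AZA effect between lines gave an edgeR adjusted p of 0.464 for CXCR4. With decitabine, TLOm1 had 132 CPM untreated and 115, 134 and 121 CPM at 5, 12.5 and 25 nM. PF382 had 481 CPM untreated and 466, 469 and 425 CPM, and HH had 190.2 CPM untreated and 196, 210.0 and 229 CPM at these doses. HH was above its untreated library at all 3 doses and PF382 below it, with an edgeR adjusted p between lines of 0.94.

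CCR7 was above its own untreated library in 8 of 9 AZA libraries and in 9 of 9 decitabine libraries. In HH it was 259.8 CPM untreated and 303, 376 and 435 CPM at 50, 125 and 250 nM AZA, and 308 CPM untreated and 319, 361 and 430.0 CPM at 5, 12.5 and 25 nM decitabine. The HH level was thus higher at each higher dose of both drugs, reaching 1.68 times the untreated level with AZA and 1.40 times with decitabine. In TLOm1 it was 760.5 CPM untreated and 847, 837 and 677 CPM with AZA, and 760.4 CPM untreated and 787, 866 and 791 CPM with decitabine. In PF382 it was 1.57 CPM untreated and 3.21, 2.93 and 1.99 CPM with AZA, and 0.847 CPM untreated and 0.918 CPM, 2.61 CPM and 4.53 CPM with decitabine. The difference over the lines was 0.35 with AZA (SE 0.16, edgeR adjusted p = 0.234) and 0.25 with decitabine (SE 0.21, edgeR adjusted p = 0.581), and neither was called.

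CCR9 reached 1 CPM in 2 lines, PF382 and TLOm1, and was at or below 0.104 CPM in HH. In PF382, the line with the immature thymocyte gene RAG1, it was 147 CPM untreated and 125, 136 and 163 CPM at 125, 250 and 500 nM AZA, and 149 CPM untreated and 141, 144 and 166 CPM at 5, 12.5 and 25 nM decitabine. In both series the level was above the untreated one at the highest dose and below it at the others. In TLOm1 it was 0.370 CPM untreated and 1.46 CPM, 5.10 CPM and 3.35 CPM at the 3 decitabine doses, on 8, 41, 152 and 79 counts. The ratio at 12.5 nM was 13.8 (95% counting interval from 6.82 to 32.5). With AZA the TLOm1 level was 0.203 CPM untreated and 0.0822 CPM, 0.0821 CPM and 0 CPM, on 5 counts or fewer. The decitabine effect in TLOm1 was 3.15 on the log2 scale (SE 0.76, edgeR adjusted p = 0.242, DESeq2 adjusted p = 0.00224). It was called by edgeR without the TLOm1 library at 5 nM (3.51, adjusted p = 0.00758) or with the untreated libraries of both sets (3.52, adjusted p = 0.0263). The latter fit holds no block for the set.

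RAG1 was 0.602 CPM in untreated TLOm1 of the decitabine set and 0.428 CPM, 0.369 CPM and 1.14 CPM at 5, 12.5 and 25 nM. In the RefSeq annotation CCR9 overlaps LZTFL1, a gene of ciliary protein transport, and whether the counts used strand is not given in the sources used here, so that reads of the 2 genes may not have been told apart. LZTFL1 in TLOm1 was 7.03 CPM untreated and 11.97, 12.9 and 10.5 CPM at the 3 decitabine doses, against 0.325 CPM untreated and 0 CPM, 0.657 CPM and 0.552 CPM at the 3 AZA doses. The 2 untreated TLOm1 libraries thus differed in LZTFL1 before any drug. In PF382, LZTFL1 was 104 to 126 CPM in the AZA set and 155 to 202 CPM in the decitabine set, and in HH it was at most 0.242 CPM. The part of LZTFL1 in the CCR9 counts was not tested.

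**Figure D5:**
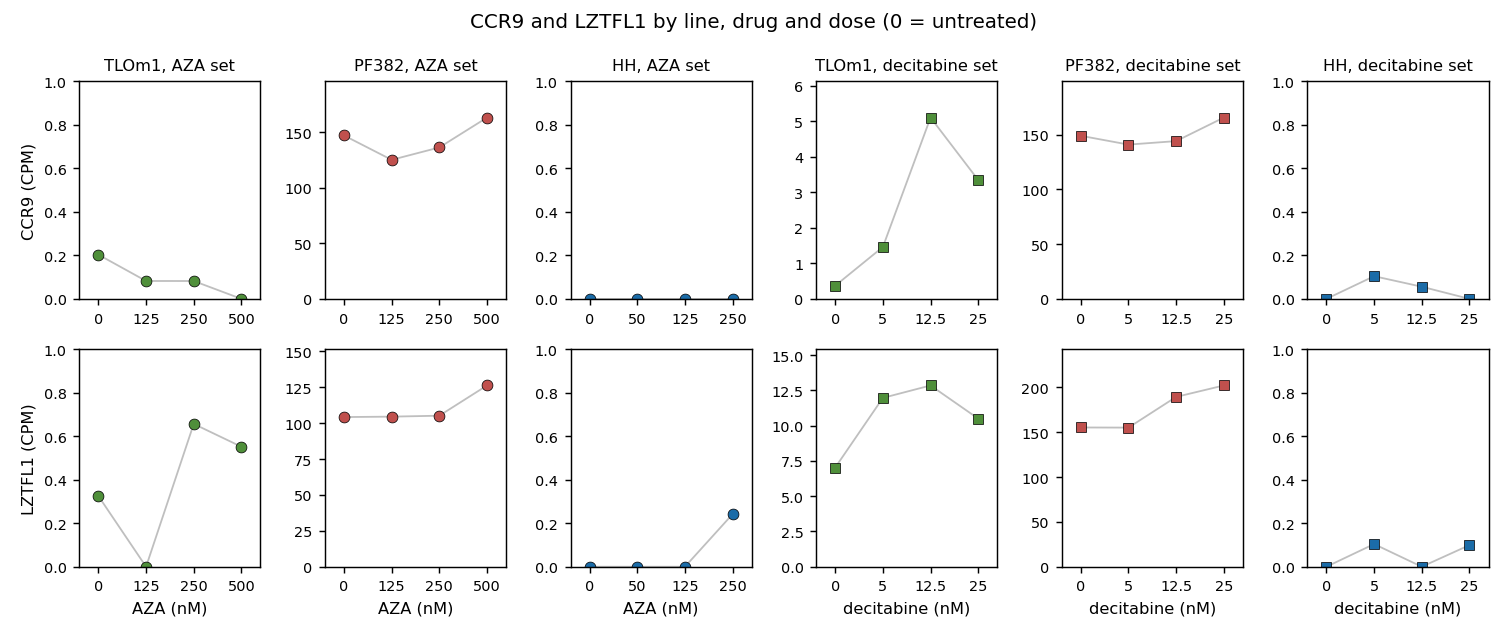
CCR9 and LZTFL1, the gene that overlaps it, in CPM (rows, vertical axes from 0, scaled by panel) by dose in nM (evenly spaced, 0 for untreated) in each line and set, 1 point per library. In TLOm1 the decitabine set holds CCR9 up to 5.10 CPM and LZTFL1 up to 12.9 CPM, while no TLOm1 library of the AZA set exceeds 0.657 CPM in either gene.

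CXCR5, the receptor of follicular T cells, was 1.22 CPM untreated and 1.06 CPM, 0.892 CPM and 0.798 CPM at 125, 250 and 500 nM AZA in PF382. In the decitabine set it was 2.02 CPM untreated and 0.861 CPM, 1.204 CPM and 1.44 CPM. All 6 treated PF382 libraries lay below their own untreated library, on 15 to 27 counts, and neither effect in PF382 was called (edgeR adjusted p = 0.809 with AZA and 0.509 with decitabine). In TLOm1 and HH no library exceeded 0.212 and 0.0994 CPM. CCR6 stayed at 6 counts or fewer in TLOm1 with AZA and reached its highest value, 1.14 CPM on 17 counts, in PF382 at 12.5 nM decitabine.

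In the model of all 24 libraries, which gives the effect of each drug in each line, edgeR called 0 of the 9 receptors in every one of the 6 line and drug combinations. With AZA the share of 16513 genes called was 1.36% in TLOm1, 0.957% in PF382 and 0% in HH. With decitabine it was 0% in TLOm1, 0.248% in PF382 and 0.00606% in HH. At an unadjusted p under 0.05 there were 2, 2 and 0 receptors with AZA in TLOm1, PF382 and HH, and 3, 1 and 0 with decitabine. Over all genes these counts were 3219, 2123 and 1944 with AZA, and 1448, 2443 and 1367 with decitabine. DESeq2 called 1 in TLOm1 and 1 in PF382 with AZA, both times CXCR3, and with decitabine CXCR3 in PF382 and CCR9 in TLOm1, and 0 in HH with either drug. Over all genes it called 953, 470 and 279 with AZA in TLOm1, PF382 and HH, and 93, 443 and 50 with decitabine. Between lines, edgeR called 0 of 9 for AZA, against 0.0969% of genes, with 1 receptor at an unadjusted p under 0.05 and 1 called by DESeq2, CXCR3 (adjusted p = 0.0496). For decitabine it called 0 of 9, against 0.00606% of genes, with 2 at an unadjusted p under 0.05 and 1 called by DESeq2, CCR9 (adjusted p = 0.0153). Between lines over all genes, 1892 had an unadjusted p under 0.05 for AZA and 1464 for decitabine. DESeq2 called 414 and 141 of all genes in these 2 tests.

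The difference between the drugs, as AZA effect minus decitabine effect over the lines, was tested at dose ranges that do not match. EdgeR called 0 of 9 receptors and 0% of the genes tested, with 0 receptors at an unadjusted p under 0.05 and 0 called by DESeq2. Over all genes there were 980 at an unadjusted p under 0.05 and 5 called by DESeq2. For CCR7 the difference was -0.19 (2 SE on either side, from -0.96 to 0.58, edgeR adjusted p = 1) and for CXCR4 it was -0.23 (from -0.57 to 0.11, edgeR adjusted p = 0.954). For CXCR3 it was 2.09 (from -0.69 to 4.87, edgeR adjusted p = 0.931), with a count of 0 in the untreated TLOm1 library of the AZA set. With 1 common effect per drug over the lines, an alternative chosen after seeing the data, the CXCR3 difference was -0.01. The width of these intervals does not show that the drugs act alike on CXCR3.

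Other chemokine receptors and ligands that reached 5 CPM in a library included CCR1, CX3CR1, CCRL2, CCL22, CCL28 and CXCL10. CXCL10, a ligand of CXCR3, was lower with AZA (-1.25 on the log2 scale, SE 0.22, edgeR adjusted p = 0.0425), a call not examined with a library left out. It was 6.26 CPM untreated and 2.38, 1.52 and 1.74 CPM at 125, 250 and 500 nM AZA in TLOm1, and 38.7 CPM untreated and 21.0, 23.7 and 21.0 CPM at 50, 125 and 250 nM in HH. All PF382 libraries were at 0. With decitabine it was 6.85 CPM untreated and 4.56, 4.30 and 5.93 CPM in TLOm1 and 66.2 CPM untreated and 41.0, 46.0 and 43.9 CPM in HH (-0.57, SE 0.13, edgeR adjusted p = 0.133). The ligand thus lay below its own untreated library in every treated TLOm1 and HH library, where its receptor CXCR3 lay above it.

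CCL22, a ligand of CCR4, was expressed in HH, at 75.7 CPM untreated and 43.0, 45.1 and 50.3 CPM with AZA and at 95.2 CPM untreated and 62.0, 68.3 and 79.7 CPM with decitabine. Its difference was -0.53 with AZA (SE 0.19, edgeR adjusted p = 0.148). CCR1 reached 8.28 CPM in PF382 and CCRL2 6.02 CPM in TLOm1, CX3CR1 reached 5.34 CPM in TLOm1, and CCL28 reached 5.42 CPM in HH.

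Of 14 other chemokine receptors listed, 9 were tested with AZA and 11 with decitabine and 0 were called by edgeR, with 1 at an unadjusted p under 0.05 with each drug. For this and the lists below, 3377 of all genes had such a p with AZA and 2492 with decitabine. Of 14 ligands, 6 and 5 were tested, and 1 was called as lower with AZA, CXCL10, and 0 with decitabine, with 2 at an unadjusted p under 0.05. All 32 genes of receptor signaling listed were tested. The 1 called with AZA was RGS1, a regulator that shortens G protein signaling downstream of these receptors, and 0 were called with decitabine, with 6 at an unadjusted p under 0.05. RGS1 was 42.5 CPM untreated and 19.1, 12.7 and 9.08 CPM at 125, 250 and 500 nM AZA in TLOm1, and 127 CPM untreated and 92.1, 62.6 and 52.0 CPM at 50, 125 and 250 nM in HH (-1.25 over the lines, SE 0.24, edgeR adjusted p = 0.0363). It was lower at each higher dose in both lines, and lay at or below 0.960 CPM in the AZA set of PF382. With decitabine, where RGS1 was not called, its mean was 44.8 CPM against 82.0 CPM untreated in TLOm1. In HH the decitabine mean was 86.2 CPM against 149.9 CPM untreated, and in PF382 0.973 CPM against 0.586 CPM. The RGS1 call with AZA was not examined with a library left out. Of 15 molecules of homing and egress, such as the integrin chain ITGA4, 15 were tested and 0 called by edgeR with either drug, with 2 at an unadjusted p under 0.05 with AZA and 4 with decitabine. These list counts are for drug against untreated. In the AZA slope edgeR called 1 ligand as higher and 2 signaling genes as lower. It also called 1 homing molecule as higher and 1 as lower, against 13.7% of all genes. In the decitabine slope 1 signaling gene and 1 homing molecule were called as higher, against 2.97%.

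The genes most like each receptor were found by Pearson's r over the 24 libraries, on log2(CPM + 1) minus the mean of the line and set, among 10803 genes with a mean of at least 5 CPM (10804 for CCR10). These 24 points share lines, sets and untreated libraries, so r is a description, given with Spearman's rho. CXCR3 was most like TRAM2, with r = 0.96 (rho 0.957), and LPIN3, a phosphatidate phosphatase, with r = 0.92 (rho 0.88). TRAM2 was 95.9 CPM untreated and 111, 135 and 140.5 CPM with AZA in HH. CXCR4 was most like the chemokine CCL5, with r = 0.92 (rho 0.681), which in TLOm1 was 25.8 CPM untreated and 18.3, 10.96 and 5.73 CPM with AZA. With decitabine CCL5 in TLOm1 was 14.5 CPM untreated and 18.1, 16.9 and 17.7 CPM at 5, 12.5 and 25 nM. It thus lay above untreated at 5 and 25 nM, where CXCR4 lay below. In PF382 CCL5 did not exceed 0.742 CPM. CCR8 was most like POLA1, the catalytic subunit of DNA polymerase alpha, with r = 0.90 (rho 0.918), CCR7 like C9orf100 with r = 0.88 (rho 0.886), and CCR4 like the nucleoside transporter SLC29A2 with r = 0.87 (rho 0.745). CCR10 was most like LIMD2, with r = 0.86 (rho 0.753), and CCR9 like GINS4, a subunit of the replication complex GINS, with r = 0.78. The rho of CCR9 and GINS4 was 0.384, so this likeness was far weaker by rank. Outside TLOm1, CCR8 did not exceed 1.31 CPM and CCR10 did not exceed 0.638 CPM, so their PF382 and HH points rest on low counts. The same holds for CCR4 in PF382 (at most 0.288 CPM) and for CCR9 in HH (at most 0.104 CPM). In the AZA set of TLOm1, CCR9 did not exceed 0.203 CPM.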

How the data were processed

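RNA was measured by sequencing in 24 libraries of 3 lines. The labels name a stranded mRNA kit and give the input in one place as poly-A RNA and in another as total RNA after ribosomal depletion. The authors deposited whole-number counts per gene, not normalized. Tools listed in the submitters' processing notes are STAR, limma and DESeq2, with the build GRCh37.p2. For the read counter, annotation and strand setting, the entry is: not given in the sources used here. Depth limits the low receptors: 3 counts equal 0.0923 to 0.216 CPM, and 95% intervals (conditional exact binomial) cover counting error only. Between the untreated libraries of each line, counts differed beyond sampling noise (chi-square per degree of freedom from 25.1 to 36.2).

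From these counts, CPM were computed on library totals, and tests used edgeR 4.0.16 in R 4.3.3 (TMM, robust quasi-likelihood F test, filterByExpr with a minimum count of 10 and a minimum total of 15, Benjamini-Hochberg over all genes tested, threshold 0.05). Standard errors were taken from the log2 difference and the F value. Models were drug against untreated with the line as a block, the slope on log2 dose among the 9 treated libraries of a drug, all 24 libraries with 6 blocks (line within set), and the 6 untreated libraries with the set as a block. The filter used the arm, the line or the line within set as its group. Effects in 1 line are described for receptors reaching 1 CPM there. Alternatives were DESeq2 1.42.0, DESeq2 size factors in edgeR, no filter, each library or line left out, untreated libraries of both sets as controls, and, chosen after seeing the data, 1 common effect per drug and a filter over all treated libraries. With untreated libraries of both sets, the models hold the line but not the set as a block. Differences between the sets then enter the drug effect. Scripts were tested on simulated data. Besides the receptors, the text names other receptors and ligands reaching 5 CPM, up to 4 called genes per list, and the genes most like each receptor, passing over LOC identifiers and a few genes that are not reported here. RAG1, TBX21, GATA3, LZTFL1 and the T-cell genes were named after their values were seen. The receptors and gene lists were chosen with earlier results of these data known.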

Additional observations from a re-analysis of the deposited data

Results flagged for a closer look

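CXCR4 drew attention because every treated library of HH lay above its own untreated library while every treated library of another line lay below its own. The AZA effect in HH exceeded that in TLOm1 by 0.77 on the log2 scale and that in PF382 by 0.46, and the decitabine effect in HH exceeded that in PF382 by 0.24. The test over the lines did not pass the threshold with AZA (edgeR adjusted p = 0.464) or decitabine (edgeR adjusted p = 0.94), and the single pairs of lines were not tested. With the untreated libraries of both sets as controls, in a fit without a block for the set, the AZA effect in HH was -0.03.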

How the results depend on the processing

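Each condition is 1 library, which limits every effect in a single line, and receptors under about 1 CPM rest on few counts. With DESeq2 size factors the number of receptors called was the main one in all 16 comparisons. With no filter on low counts it was 6 in place of 7 in untreated PF382 and in untreated TLOm1, each against HH, and the main one otherwise. With all 24 libraries it was 8 in untreated TLOm1 against PF382 and in untreated PF382 against HH. DESeq2 called 1 receptor, against 0 by edgeR, with AZA and with decitabine against untreated, in AZA in PF382 and TLOm1, in decitabine in PF382 and TLOm1, and in both tests between lines. With the untreated libraries of both sets and no block for the set, 2 receptors were called with AZA and 1 with decitabine, and 1 in each of AZA in HH and TLOm1 and decitabine in PF382 and TLOm1. The AZA slope had 0 receptors called without TLOm1 and with the filter over all treated libraries, under both of which CCR8 was not among the genes tested. The decitabine slope had 0 called without HH or without PF382. Leaving out 1 library at a time gave 0 to 1 receptors called for AZA against untreated, the decitabine slope, AZA in TLOm1 and decitabine in PF382 and TLOm1.

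The log2 differences that turned sign were none of them called in the main analysis. With DESeq2 these were CXCR5 with AZA (0.0095), CXCR5 (0.15) and CCR7 (-0.021) in the AZA slope, CCR4 in the decitabine slope (0.077) and CXCR5 between untreated TLOm1 and HH (0.066, and 1.05 with all 24 libraries). Without PF382 they were CCR10 with AZA (-0.046) and CXCR4 with decitabine (0.0068). Without TLOm1 they were CCR9 with decitabine (-0.040) and the AZA slope of CXCR4 (0.0050). Without HH they were the AZA slopes of CCR7 (-0.19) and CXCR3 (-0.011) and the decitabine slope of CXCR4 (-0.032). With the untreated libraries of both sets they were, with decitabine, CCR4 (0.050), CCR10 (-0.036) and CXCR4 (0.073) over the lines, CCR4 in HH (0.034) and CCR4 (0.044), CCR10 (-0.24) and CXCR4 (0.12) in TLOm1, and CXCR4 in AZA-treated HH (-0.029). With 1 common effect per drug they were CCR7 (0.066) and CXCR3 (-0.014) in AZA minus decitabine.

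Leaving out 1 library turned the sign of CCR10 (-0.031 to 1.05) and CXCR5 (-0.31 to 0.75) with AZA, of CCR9 (-0.012 to 3.15), CXCR4 (-0.11 to 0.011) and CXCR5 (-0.76 to 1.18) with decitabine, of the AZA slopes of CCR7 (-0.14 to 0.12), CCR10 (-0.51 to 0.022), CXCR3 (-0.028 to 0.27) and CXCR5 (-0.19 to 0.13), and of the decitabine slope of CXCR4 (-0.016 to 0.051). It did so for CXCR5 between untreated TLOm1 and HH (-3.56 to 2.97), CXCR3 between untreated TLOm1 and PF382 (-6.66 to 0.45), CCR7 (-0.0039 to 0.17) and CCR10 (-0.61 to 0.0068) in AZA-treated TLOm1, CCR9 in decitabine-treated PF382 (-0.076 to 0.0016) and CCR10 in decitabine-treated TLOm1 (-0.10 to 0.051). Except where the tested genes changed, the cause was not tested. Beyond the blocks for the line, or the line within its set, that the main models hold, no paired analysis was possible because the labels give no replicate numbers.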
